A study of Bos taurus with 12 samples.

Results

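The HOX genes measured in the endometrium of Simmental heifers are described here. They were taken as the probe sets whose gene symbol on the array's annotation is HOXA, HOXB, HOXC or HOXD with a number and whose mean log2 signal over all 12 arrays was above 6.7. Of 24016 probe sets that are not controls, 13 carried such a symbol, for 11 genes, and 6 of these lay above the limit: HOXA4, HOXA5, HOXA9, HOXB3, HOXB4 and HOXB7. Each array held a pool of RNA from several brush biopsies, and 3 pools stood for each of 4 groups. The biopsies were taken on day 3 or day 7 of an estrous cycle after synchronization, and an in vitro-produced embryo was transferred to the heifers in the next cycle. Animals that were later pregnant formed the high receptivity (receptive) groups HR3 and HR7, and animals without a detectable embryo formed the low receptivity (non receptive) groups LR3 and LR7. All 4 groups shared breed and handling, and age was not given in the sources used here. Receptivity was therefore assigned afterwards from the outcome of the transfer. The records do not say whether the day 3 and day 7 pools hold the same heifers, so p-values measure the spread between pools only.

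HOX genes encode transcription factors that bind DNA through a homeodomain and are arranged in clusters, in which the order of the genes follows their order of action along the body axis. Genes with low numbers lie on the 3′ side of a cluster and act towards the head, and genes with high numbers lie on the 5′ side and act towards the tail. In the mouse, the 5′ genes of the HOXA cluster pattern the female tract along its length, with Hoxa9 in the prospective oviduct, Hoxa10 in the uterus and Hoxa11 in the uterus and cervix, and Hoxa10 and Hoxa11 are required in the maternal uterus for implantation. In the human endometrium, HOXA10 and HOXA11 are known for their response to ovarian steroids.

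The members came from the HOXA and HOXB clusters, while no probe set of the HOXC or HOXD cluster reached the limit. The bovine RefSeq annotation (ARS-UCD2.0) places 11 HOXA genes on chromosome 4, 10 HOXB genes on chromosome 19, 9 HOXC genes on chromosome 5 and 9 HOXD genes on chromosome 2. The array carried a named probe set for 4 of the 11 HOXA genes, of which 3 had a member, and for 3 of the 10 HOXB genes, all of which had a member. It carried one for 3 of the HOXC genes and for 1 of the HOXD genes, none of which had a member. HOXA9 lies on the 5′ side of its cluster next to HOXA10, and HOXA4 and HOXA5 lie on the 3′ side of it. HOXB7 lies next to HOXB8, and HOXB3 and HOXB4 lie further to the 3′ side. The members thus belonged to the paralogue groups 3, 4, 5, 7 and 9, and group 4 was represented in both clusters. Genes of the HOXA and HOXB clusters that have no probe set with their symbol, such as HOXA7, HOXA13, HOXB6 and HOXB13, were not measured under these names.

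**Figure D1:**
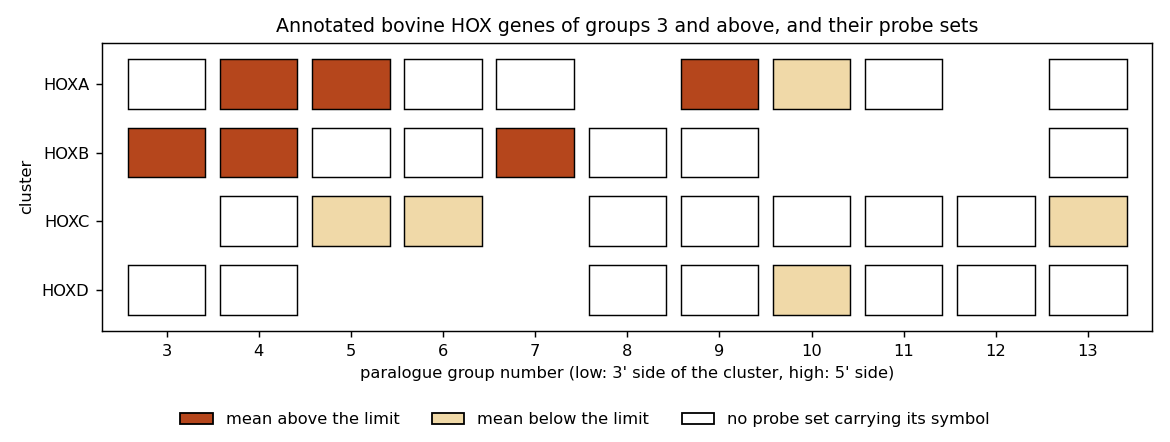
Each box is a HOX gene annotated in the cow, for the paralogue groups from 3 upwards, placed by its cluster (rows) and its group number (horizontal axis), and its colour shows whether the array held a probe set with that symbol above the limit of 6.7, only below it, or none. The 6 genes above the limit lie in the HOXA and HOXB rows, and most boxes are empty because 11 of the annotated genes had a named probe set.

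HOXA5, HOXB4 and HOXB3 gene models overlap other annotated HOX genes, HOXA5 those of HOXA3 and HOXA6, HOXB4 that of HOXB3, and HOXB3 those of HOXB4, HOXB5 and HOXB6. HOXA4 overlaps HOXA3, and HOXA9 and HOXB7 overlap no other annotated gene. The positions of the probes were not used here, so signal from an overlapping transcript could not be told apart from that of the named gene.

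The members were chosen by their mean log2 signal over all arrays, and the mean levels are therefore a description. The means over the 12 arrays were 11.95 for HOXB4, 10.10 for HOXA5, 9.22 for HOXB7, 7.90 for HOXB3, 7.46 for HOXA4 and 6.85 for HOXA9, and these levels are not comparable between probe sets. HOXA9 lay just inside the limit, and HOXC5 (6.50) and HOXD10 (6.47) lay just outside it. The members differed in how far they varied among the pools. HOXA9 covered a range of 2.14 on the log2 scale, from 5.85 to 7.99, whereas HOXB4 covered 0.97, HOXB3 0.82, HOXA5 0.65, HOXA4 0.64 and HOXB7 0.39. HOXB7 was the only member whose standard deviation over the 12 arrays, 0.12, lay below the limit of 0.2 that the study set for variability.

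HOXA9, a factor best known from blood progenitors and from the mouse oviduct, showed the largest difference between days among the members, with less transcript on day 7 in the receptive groups. Its log2 signal was 7.99, 7.35 and 6.86 in the HR3 pools and 5.85, 5.90 and 6.83 in the HR7 pools. The HR7 pools lay below all HR3 pools, although HR7 replicate 3 lay close to HR3 replicate 3. In the non-receptive groups the values were 6.39, 7.64 and 6.99 on day 3 and 6.37, 7.34 and 6.68 on day 7, and the groups overlapped over most of their range. Each LR7 pool lay below the LR3 pool of the same number, though in replicate 1 only as 6.37 against 6.39. No label says that the numbers pair the pools, and how many of all probe sets share this order was not counted. The LR estimate turned to 0.107 without LR3 replicate 2. The group means were 7.40 ± 0.57 in HR3, 7.01 ± 0.63 in LR3, 6.19 ± 0.55 in HR7 and 6.80 ± 0.50 in LR7 (SD, n = 3 each). The HR7 mean lay below the limit of 6.7, and HOXA9 reached the limit only with HR3, its highest group. Its test between HR3 and HR7 is therefore not independent of the selection. HOXA9 fell by 1.21 on the log2 scale from HR3 to HR7 (SE 0.39, 95% interval −2.06 to −0.36, limma adjusted p = 0.0413), to 0.433 of its day 3 signal. In LR the difference was −0.21 (interval −1.06 to 0.64, adjusted p = 0.717, and 0.723 with the pool number as a block), and over both receptivity groups it was −0.71 (adjusted p = 0.0541). The difference between the day changes in HR and LR was −0.997 (interval −2.20 to 0.20, unadjusted p = 0.0956, adjusted p = 0.9995), so a difference in the day change between receptivity groups was not shown. The call in HR ended without HR3 replicate 1 (−0.91, adjusted p = 0.143), HR3 replicate 2 (−1.23, adjusted p = 0.0884), HR7 replicate 1 (−1.03, adjusted p = 0.125) or HR7 replicate 2 (−1.06, adjusted p = 0.134), and it also ended with no filter on low signals (adjusted p = 0.0951). It ended as well with the pool number as a block (adjusted p = 0.0520), with the signal difference between the 5′ and 3′ probe sets of the spiked dap control as a covariate (adjusted p = 0.0514), with p-values adjusted over all 7 comparisons together (adjusted p = 0.0745) and with the ordinary linear model (adjusted p = 0.0957).

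**Figure D2:**
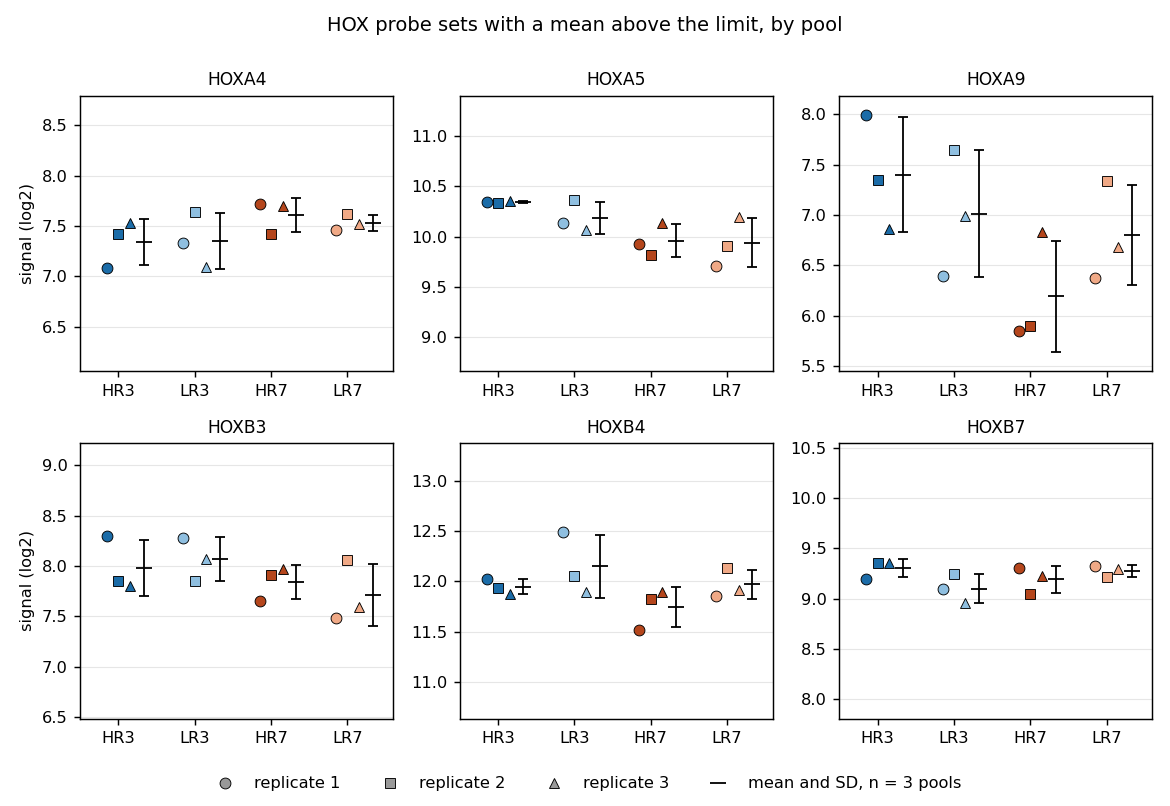
Log2 signal (vertical axis, the same span in every panel) of the 6 members in each pool of HR3, LR3, HR7 and LR7 (horizontal axis), with the replicate shown by the marker and the mean and SD of 3 pools beside the points. HOXA9 spreads from 5.85 to 7.99 and HOXA5 steps down from HR3 to HR7, while HOXB7 stays between 8.96 and 9.35.

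HOXA5, which in the mouse acts in the lung and in the skeleton of the neck and shoulder, was lower on day 7 than on day 3 by a smaller amount but with a tighter spread. The HR3 pools had signals of 10.34, 10.33 and 10.35 and the HR7 pools 9.93, 9.82 and 10.13, without overlap. The LR3 pools had 10.13, 10.36 and 10.06 and the LR7 pools 9.71, 9.91 and 10.19, and the last of these lay above LR3 replicates 1 and 3. Over both receptivity groups HOXA5 fell by 0.31 on the log2 scale (SE 0.09, interval −0.52 to −0.11, limma adjusted p = 0.0190), to 0.805 of its day 3 signal, from a mean of 10.26 to 9.95. Within HR the difference was −0.38 (adjusted p = 0.0589) and within LR −0.25 (adjusted p = 0.194). The call over both groups ended when p-values were adjusted over all 7 comparisons together (adjusted p = 0.0579) and when the dap difference was added as a covariate (−0.31, adjusted p = 0.0814). That control difference ran from −2.69 to −1.34 in HR3, from −2.98 to −2.54 in LR3, from −2.33 to −1.69 in HR7 and from −1.82 to −1.38 in LR7. For actin, a transcript of the samples, the difference ran from −0.86 to 0.17 in HR3 and from −1.16 to −0.30 in HR7. In LR3 the actin difference ran from −0.62 to 0.55 and in LR7 from −1.53 to −0.62. For GAPDH the days overlapped, from −0.92 to −0.44 over all pools. The part of RNA quality in the HOX results was not tested. A further HOXA5 probe set, with a mean of 5.72 and therefore no member, did not follow the member probe set. Its signals ran from 5.26 to 6.10 on day 3 and from 5.62 to 5.90 on day 7, with means of 5.68 and 5.76 (difference 0.08, adjusted p = 0.75 in a fit over all 24016 probe sets).

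HOXB4, a factor known from the self-renewal of blood stem cells and from the vertebrae of the neck in the mouse, had the highest mean among the HOXB probe sets. Its signals were 12.02, 11.94 and 11.88 for the HR3 pools, 12.49, 12.05 and 11.90 for LR3, 11.52, 11.83 and 11.90 for HR7 and 11.86, 12.13 and 11.92 for LR7. All groups overlapped, with LR3 replicate 1 the highest pool and HR7 replicate 1 the lowest. The day difference over both receptivity groups was −0.19 (interval −0.43 to 0.05, adjusted p = 0.185). The receptivity difference, HR minus LR over both days, was −0.21 (interval −0.45 to 0.03, unadjusted p = 0.0805, adjusted p = 0.736), and it was −0.20 on day 3 and −0.22 on day 7. Single pools carried much of these values. Without LR3 replicate 1 the difference was −0.028 on day 3 and −0.12 over both days, and without HR7 replicate 1 or LR7 replicate 2 it was −0.105 or −0.14 on day 7.

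The remaining members passed in no comparison. HOXB3, which acts in hindbrain segments in the mouse, ran from 7.80 to 8.30 in HR3, from 7.85 to 8.28 in LR3, from 7.65 to 7.97 in HR7 and from 7.48 to 8.06 in LR7, with a day difference of −0.25 over both groups (adjusted p = 0.14). HOXA4, which helps to specify neck vertebrae in the mouse, had the highest estimate among the members for day 7 minus day 3 over both groups, 0.23 (interval −0.02 to 0.47, adjusted p = 0.119), with ranges of 7.08 to 7.53 in HR3, 7.09 to 7.64 in LR3, 7.42 to 7.72 in HR7 and 7.46 to 7.62 in LR7. HOXB7, known from the patterning of the ribs in the mouse, had the narrowest range over the 12 arrays, with 9.19 to 9.35 in HR3, 8.96 to 9.24 in LR3, 9.05 to 9.30 in HR7 and 9.21 to 9.32 in LR7. Its day difference over both groups was 0.03 (interval −0.13 to 0.20, adjusted p = 0.742).

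Across all probe sets the difference between the days was broad, and the members' counts are to be read against it. Of the 12011 probe sets with a mean above 6.7, 24.7% passed between HR3 and HR7, 12.6% as lower on day 7, and 1 of the 6 HOX members did, HOXA9. Since HOXA9 is a member only through its HR3 signal, that count is a description. Over both receptivity groups 44.7% passed, 24.1% as lower, and again 1 of 6 members did, HOXA5. In LR 26.5% passed and no member did, and at an unadjusted p under 0.05 limma gave 0 of 6 members, against 39.8% of all tested probe sets. With the dap covariate the shares that passed were 24.8% in HR, 2.06% in LR and 29.4% over both. The dap difference did not overlap between LR3 (−2.98 to −2.54) and LR7 (−1.82 to −1.38), so in LR it could not be told apart from the day. The 2 members whose HR7 pools lay below all HR3 pools, HOXA5 and HOXA9, stand beside 24.9% of all tested probe sets with that pattern. The median member difference was −0.17 in HR, −0.19 in LR and −0.22 over both, against −0.03, −0.04 and −0.04 over all tested probe sets. Estimates lay below 0 for 5 of 6 members in HR and 4 of 6 in LR, but the medians over all tested probe sets were below 0 as well. The share of all tested probe sets below 0 was not counted, and the gene models of HOXB3 and HOXB4 overlap, so these counts are a description.

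The receptive and non-receptive endometrium were compared on each day to see whether HOX transcripts differed before the transfer cycle. No member passed between HR3 and LR3, where 0.0% of all tested probe sets passed, nor between HR7 and LR7, where 0.025% did, nor over both days, where 0.00833% did. At an unadjusted p under 0.05 limma gave 0 of 6 members in each of these comparisons, against 7.24%, 3.58% and 6.94% of all tested probe sets. The ordinary linear model without moderation gave 0 members in all of them as well. For every member the pools of HR and LR overlapped on both days, whereas 5.39% of all tested probe sets lay higher and 4.85% lower in HR3 without overlap, and 4.1% and 3.64% did so in HR7. The intervals bound the differences that the arrays allow. HOXA9 had 0.39 on day 3 (interval −0.46 to 1.24) and −0.60 on day 7 (interval −1.45 to 0.25), so a difference of 1 log2 unit upwards on day 3, or downwards on day 7, lay within the interval. For HOXA5 the differences were 0.16 (interval −0.14 to 0.45) and 0.02 (interval −0.27 to 0.32), for HOXA4 −0.01 (interval −0.35 to 0.33) and 0.08 (interval −0.26 to 0.42), and for HOXB3 −0.08 (interval −0.49 to 0.32) and 0.13 (interval −0.27 to 0.54). HOXB7 had the smallest unadjusted p among the members on day 3, 0.0876, for a difference of 0.20 (interval −0.03 to 0.43, adjusted p = 0.709), and its difference on day 7 was −0.08 (interval −0.31 to 0.15). No member passed for the interaction of receptivity and day, where 0.0% of all tested probe sets did, and 0 of 6 passed at an unadjusted p under 0.05, against 3.46% of all tested probe sets.

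**Figure D3:**
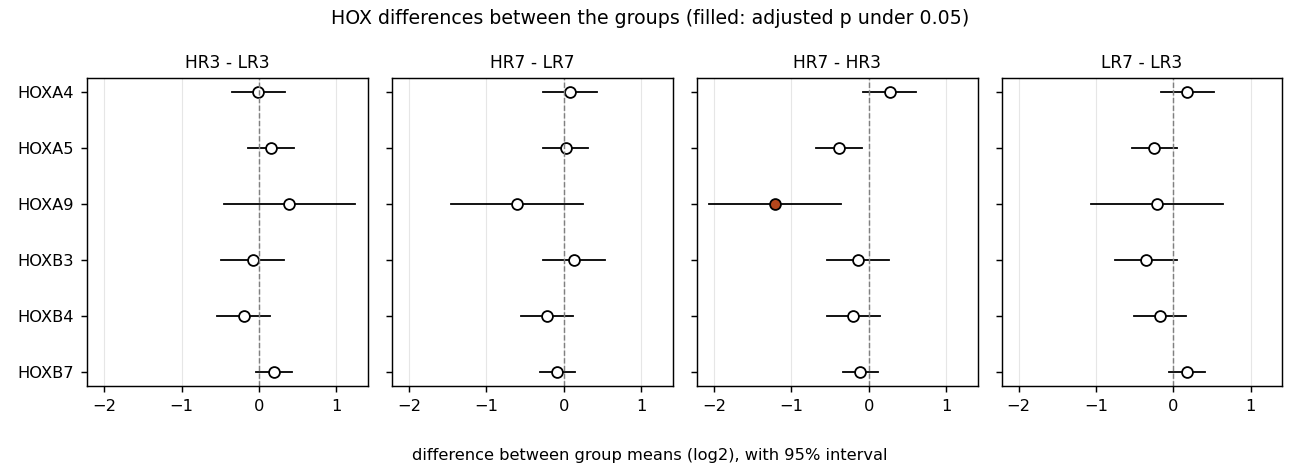
Differences between group means on the log2 scale (horizontal axis) with 95% intervals for the 6 members (vertical axis) in 4 comparisons, with a filled point where the limma adjusted p was under 0.05. HOXA9 from HR3 to HR7 (−1.21) is the only filled point, and every interval of HR against LR crosses 0.

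The brush samples carried markers of the uterine surface, and several lists of cell type markers differed between the days. Of the 12 markers of uterine epithelium 11 were on the array and 10 lay above 6.7, with a summed log2 signal of 14.65 to 15.15 in all pools. Of the 14 stroma markers all were on the array and 12 lay above 6.7, and their summed signal was 13.97, 14.10 and 13.69 for the HR3 pools, 12.68, 13.78 and 13.50 for LR3, 12.12, 12.45 and 13.99 for HR7 and 12.20, 13.39 and 13.10 for LR7. Of these 12, 3 fell from HR3 to HR7 (FBLN1, MMP2 and LUM), 2 fell from LR3 to LR7 (FBLN1 and LUM) and 4 fell over both. Of all tested probe sets 12.6% fell in HR, 13.0% in LR and 24.1% over both. Estimates lay above 0 for 1 of the 12 markers in HR and for 3 in LR. COL1A1 had 0.01 in HR and 0.77 in LR (limma adjusted p = 0.987 and 0.18). For HR3 minus LR3 all 12 stroma markers had estimates above 0, with a median of 0.54 against 0.01 over all tested probe sets. For HR7 minus LR7 this held for 5 of the 12, and none passed on either day. The sum is of linear signals, so markers with high signals, such as COL3A1 (mean 11.38), weigh most in it. The ciliated epithelium list had 1 of its 6 markers on the array, TEKT1, a protein of the ciliary axoneme. Its signal was 8.45, 8.71 and 7.77 for the HR3 pools, 8.19, 8.08 and 8.69 for LR3, 6.56, 6.76 and 7.85 for HR7 and 7.81, 7.51 and 8.25 for LR7. TEKT1 fell by 1.25 in HR (adjusted p = 0.0206) and by 0.86 over both groups (adjusted p = 0.0134), and had −0.46 in LR (adjusted p = 0.334). As for HOXA9, HR7 replicates 1 and 2 were the lowest of all 12 pools and HR7 replicate 3 was the highest of HR7. Neutrophil markers, 3 of 4 on the array, summed to 8.27 to 8.80 in HR3, 8.80 to 9.88 in LR3, 12.69 to 13.63 in HR7 and 11.78 to 12.50 in LR7. Squamous epithelium markers, 5 of 11 on the array, summed to 8.24 to 8.75 in HR3, 7.94 to 8.82 in LR3, 11.39 to 12.05 in HR7 and 9.04 to 9.38 in LR7. Of these, 2 lay above 6.7, KRT5 and KRT15, and they carried the higher sums on day 7. KRT14, KRT4 and COL17A1 had group means between 5.28 and 6.12 and were not tested. Macrophage markers (3 of 4 on the array) summed to 9.05 to 10.03 on day 3 and 10.30 to 11.39 on day 7, and those of T and NK cells (7 of 8) to 10.18 to 10.70 and 9.32 to 10.19. The macrophage markers did not move together. CD68 rose by 2.02 and CD14 by 1.42 over both groups, while CSF1R had −0.42 (limma adjusted p = 0.117). No marker stood at 0 on any array, and none of smooth muscle, endothelium or red blood cells had a mean above 6.7. In such bulk samples fewer cells of a type and less RNA per cell cannot be told apart.

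The pools low in HOXA9 were also low in stroma signal, within the groups as well as between them. In all 4 groups the pool with the lowest stroma signal was the pool with the lowest HOXA9, and HR7 replicate 3, with a stroma signal of 13.99 against 12.12 and 12.45 in the other HR7 pools, was the HR7 pool with HOXA9 at 6.83. The other members matched the lowest stroma pool less evenly, HOXB3 and HOXB4 in 3 of 4 groups, HOXA4 and HOXA5 in 1 and HOXB7 in 0. How many of all probe sets match in this way was not counted, so the match is a description. In HR7 the HOXA9 match rested on 5.85 against 5.90. Within day 3 (6 pools) Pearson's r was 0.81 (exact permutation p = 0.0417) and Spearman's rho 0.77 (exact permutation p = 0.103), and r was 0.86 without the 2 pools farthest from the median. Within day 7 (6 pools) r was 0.78 (exact permutation p = 0.0667) and rho 0.89 (exact permutation p = 0.0333), and r was 0.84 without those 2 pools. Over the 24 relations computed for the 6 members, with stroma and with uterine epithelium on each day, no adjusted value passed 0.05, and for HOXA9 with stroma these were 0.25 and 0.367 on day 3 and 0.32 and 0.267 on day 7. For HOXA5 with stroma r was 0.69 on day 3 (exact permutation p = 0.121, adjusted 0.344) and 0.69 on day 7 (exact permutation p = 0.139, adjusted 0.344). For HOXB4 with stroma r was −0.82 on day 3 (exact permutation p = 0.129) and turned to 0.72 without the 2 pools farthest from the median. With uterine epithelium, HOXA9 had an r of −0.07 on day 3 and −0.82 on day 7 (exact permutation p = 0.0417, adjusted 0.25), and the latter was −0.36 without those 2 pools. HOXB4 had −0.98 with uterine epithelium on day 7 (exact permutation p = 0.0083, adjusted 0.2), which was −0.63 without them, and HOXB7 had 0.85 on day 3 (exact permutation p = 0.0361, adjusted 0.25, with a rho of 0.97, exact permutation p = 0.0056, adjusted 0.133). The part of the stroma in the HOXA9 and HOXA5 results was not tested, and neither was that of the ciliated, neutrophil and squamous signals.

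**Figure D4:**
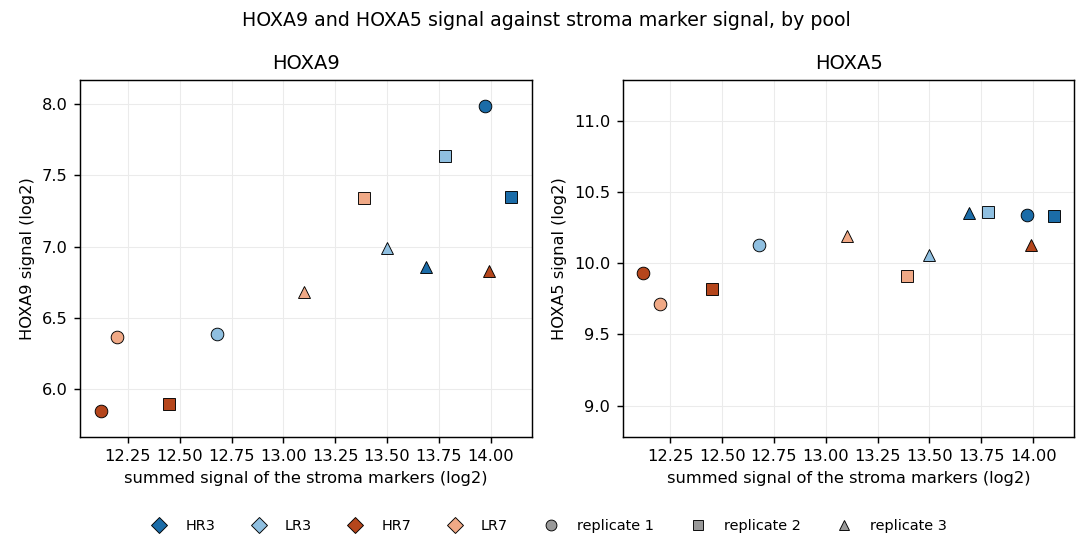
Log2 signal of HOXA9 (left) and HOXA5 (right) against the log2 of the summed signal of the 14 stroma markers (horizontal axis), with a point for each of the 12 pools, coloured by group and shaped by replicate. HR7 replicates 1 and 2 lie at the low end for stroma and HOXA9, and HR7 replicate 3 lies at 13.99 with HOXA9 at 6.83.

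The 7 HOX probe sets below the limit were tested in a fit over all 24016 probe sets, in which 26.5% passed for the day over both groups (14.0% as lower) and 11.2% in HR (5.44% as lower). HOXD10, a gene of the 5′ side of the HOXD cluster known from limb and hindlimb motor neuron patterning in the mouse, was lower on day 7. Its signals were 7.15, 6.81 and 6.79 for the HR3 pools, 6.45, 6.56 and 6.64 for LR3, 5.91, 6.17 and 6.38 for HR7 and 6.09, 6.42 and 6.29 for LR7. All 6 pools of day 7 lay below all 6 pools of day 3, a pattern shared by 7.08% of all probe sets. The HR3 pools lay above the LR3 pools, as in 5.63% of all probe sets, and that difference of 0.37 did not pass (unadjusted p = 0.0385, adjusted p = 0.726). HOXD10 fell by 0.52 over both groups (SE 0.11, adjusted p = 0.00679) and by 0.76 in HR (adjusted p = 0.0148), and the difference in LR was −0.28 (adjusted p = 0.261) with an interaction of −0.48 (unadjusted p = 0.0520, adjusted p = 0.9998). The HR call ended without HR7 replicate 2 (adjusted p = 0.0505), and the call over both groups ended with the dap covariate (adjusted p = 0.0537). As for HOXA9, the lowest HOXD10 pool of each of the 4 groups was the pool with the lowest stroma signal, whereas for HOXA5 this held in 1 group and for HOXC6 in 0. The share of all probe sets with such a match was not counted, and in HR3 it rested on 6.79 against 6.81.

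HOXC6, with a probe set at a mean of 5.31, ran from 5.44 to 5.73 in HR3, from 5.27 to 5.53 in LR3, from 4.96 to 5.28 in HR7 and from 4.92 to 5.15 in LR7. It fell by 0.43 over both groups (SE 0.09, adjusted p = 0.00836), and a further HOXC6 probe set with a mean of 2.51 had 0.25 in the same comparison (adjusted p = 0.795), with a value of 0 among the HR3 pools. HOXA10, the gene of this family best known for implantation, stood at 5.18, 5.61 and 5.24 for the HR3 pools, 4.07, 4.85 and 4.44 for LR3, 3.96, 4.55 and 5.18 for HR7 and 3.83, 4.68 and 4.58 for LR7. The HR3 pools lay above the LR3 pools, as in 5.63% of all probe sets, and HR7 overlapped LR7. All 12 tested stroma markers also had higher estimates in HR3 than in LR3, and the part of the stroma was not tested. The HOXA10 difference on day 3 was 0.89 (SE 0.34, unadjusted p = 0.0242) and did not pass after adjustment (adjusted p = 0.722), where 0.00416% of all probe sets passed, and on day 7 it was 0.20 (adjusted p = 0.9998). On day 3 it was 0.47 with the dap covariate and 0.57 with 16 added to the signal. From day 3 to day 7 HOXA10 had −0.78 in HR (limma unadjusted p = 0.0423, adjusted p = 0.167) and −0.09 in LR (adjusted p = 0.89), and neither passed. In LR3, HR7 and LR7, but not in HR3, the lowest HOXA10 pool was the pool with the lowest stroma signal, a match not counted over all probe sets. HOXC5, with pools between 6.16 and 6.68, and HOXC13, with pools between 3.64 and 5.35, passed in no comparison. Whether signals this low were above background was not known, since the present calls of the study were not used here.

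**Figure D5:**
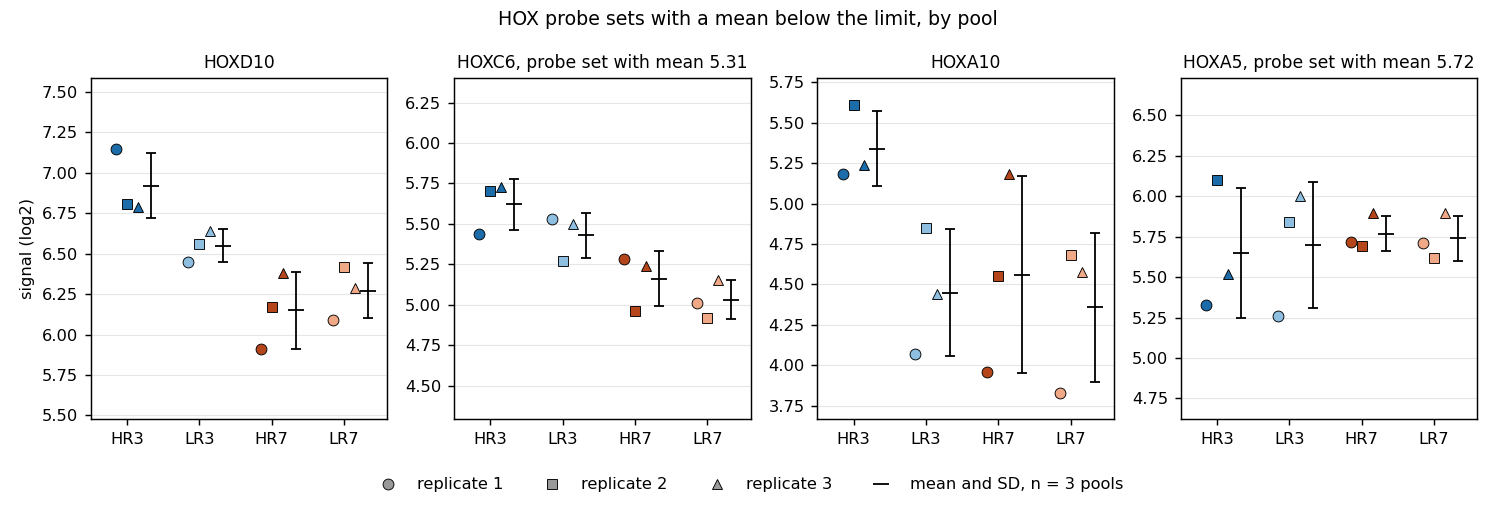
Log2 signal (vertical axis, the same span in every panel) by pool for 4 probe sets below the limit, with the mean and SD of 3 pools beside the points. HOXD10 is lower in all day 7 pools (5.91 to 6.42) than in all day 3 pools (6.45 to 7.15), HOXA10 is higher in the HR3 pools than in the LR3 pools, and the further HOXA5 probe set shows no step between the days.

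Probe sets that carry HOX names in the lists of the study but no such symbol in the array's annotation were not members, and the signals of 2 of them are given as a description. The probe set named for HOXA11, known with HOXA10 for implantation in the mouse, had a mean of 6.05 and ran from 6.72 to 7.76 in HR3, from 5.86 to 7.45 in LR3, from 3.96 to 6.91 in HR7 and from 3.53 to 6.13 in LR7, so that HR and LR overlapped on both days. The probe set named for HOXD9 had a mean of 5.03.

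Among partners and regulators of HOX proteins some genes rose and some fell with the day, and none of the listed ones passed between receptivity groups. HOX proteins bind DNA together with the PBX and MEIS families of homeodomain cofactors. Of 9 such genes 6 were on the array and 4 were tested, of which 1 rose and 2 fell on day 7 over both groups, where 44.7% of all tested probe sets passed and 24.1% fell. PBX3 rose by 0.94 (SE 0.15, adjusted p = 0.000444), from 6.93 ± 0.41 in HR3 and 6.65 ± 0.29 in LR3 to 7.67 ± 0.07 in HR7 and 7.80 ± 0.24 in LR7 (SD, n = 3 each). MEIS1 fell by 0.82 (SE 0.09, adjusted p = 4.18e-05), from 10.38 ± 0.10 in HR3 and 10.29 ± 0.11 in LR3 to 9.61 ± 0.15 in HR7 and 9.41 ± 0.20 in LR7 (SD, n = 3 each). PBX2 fell by 0.25 (adjusted p = 0.0209), and MEIS3 had 0.08.

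Polycomb proteins keep HOX genes silent through histone methylation and compaction, and Trithorax proteins keep them active. Of 22 Polycomb genes 13 were on the array and 11 were tested, of which 2 rose and 6 fell over both groups, beside the 44.7% of all tested probe sets that passed and the 24.1% that fell, with a median difference of −0.23 against −0.04 over all tested probe sets. EZH2, the histone methyltransferase of the Polycomb complex, fell by 0.71 (SE 0.20, adjusted p = 0.0146), PHC2 fell by 0.63 (SE 0.07, adjusted p = 4.23e-05) and PHF1 fell by 0.33, while AEBP2 rose by 0.48 (adjusted p = 0.000765) and CBX8 rose by 0.25. Of 12 Trithorax genes 6 were on the array and 5 were tested, of which 3 fell and none rose beside the same shares, ASH2L by 0.50 (adjusted p = 0.000212), MEN1 by 0.32 and WDR5 by 0.22.

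Among receptors that act upstream of HOX genes, the retinoic acid receptor RARA fell by 0.77 (SE 0.14, adjusted p = 0.000993) and its partner RXRA rose by 0.47 (adjusted p = 0.0434), out of 3 tested of 10 genes, where 44.7% of all tested probe sets passed. The estrogen receptor ESR1 (mean 4.42) and the progesterone receptor PGR (mean 4.73) lay below the limit and were not tested. Of 6 genes linked to HOXA10 or HOXA11 in human or mouse endometrium 4 were tested. EMX2, which HOXA10 represses in human endometrial cells, fell by 0.48 (SE 0.12, adjusted p = 0.00795), PTGER4 rose by 0.56 (adjusted p = 0.0338), and ITGB3, an integrin subunit that HOXA10 activates there, had 0.52 (adjusted p = 0.0647). Of 12 other genes that pattern the Müllerian duct 2 were tested. MSX1 and DLX5 did not pass over both groups (0.15 and 0.10), and both rose in LR, by 0.29 (adjusted p = 0.0490) and 0.39 (adjusted p = 0.0451), where 26.5% of all tested probe sets passed, while their interactions with receptivity did not pass (−0.27 and −0.57, adjusted p = 0.9995 for both). With the dap covariate 2.06% of all tested probe sets passed in LR.

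The probe sets whose pattern was most like that of the fully described members were found by Pearson's r over the 12 arrays among tested probe sets of other genes. After the group means were subtracted, HOXA9 was nearest to ARL14EP (r = 0.94), PRDM1 (0.93) and RFXANK (0.91). HOXA5 was nearest to NREP (0.98), FTO (0.93) and SOD1 (0.93), and HOXB4 to NIBAN1 (0.92), RBP4 (0.91) and MED13L (0.91). Over the values as deposited, HOXA9 was nearest to RAMP2 (0.88), FHL1 (0.87) and the stroma marker MMP2 (0.87), HOXA5 to MYC (0.95), IRAK4 (0.95) and C14H8orf76 (0.94), and HOXB4 to RBP4 (0.89), SRSF5 (0.87) and DGKD (0.86). These are descriptions, since all probe sets were read on the same 12 pools, each with its own RNA quality.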

How the data were processed

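RNA pools of endometrial brush biopsies were hybridised to Affymetrix bovine genome arrays. The authors scanned the arrays in GCOS 1.1.1 under global scaling and computed PLIER signals in Expression Console, deposited as log2 values, to which no further normalization was applied. Precision is limited by the number of arrays. Array medians lay between 6.64 and 6.77, and no pair of arrays shared more than 2.05% of values. Of 24128 rows, 112 are controls. Platform annotation gave 13292 of the others 1 symbol, 86 several and 10638 none, and the probe set with the highest mean stands for a list gene that has several. The present calls of the study were not used here, and a mean above 6.7 over the 12 arrays, set without regard to groups, took their place (12011 probe sets).

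Differences were estimated in limma 3.58.1 (R 4.3.3) with a mean for each of the 4 groups over all 12 arrays and moderated standard errors, in 7 comparisons. P-values were adjusted by Benjamini-Hochberg within each comparison over all tested probe sets, and a probe set passed under 0.05. Intervals are 95% with 11.6 degrees of freedom. The study itself fitted receptivity and day as fixed effects in SAS. Tables were made in Python 3.11.15 (pandas 2.3.3, numpy 2.4.6, scipy 1.17.1). Deviations of same-numbered pools from their group means correlated above 0.1 in every pair for LR3 with LR7 (0.203 to 0.512) and HR7 with LR7 (0.114 to 0.423). The own number gave the highest correlation for 5 of 6 pools of LR3 and LR7, and for 4 of 6 of HR7 and LR7. HR and LR hold different animals, so a shared number there cannot stand for the same heifers. No label pairs the pools, and the pool number served only as a block in an alternative fit. Marker levels are the log2 of summed linear signals. The script was tested on simulated data. Members and gene lists were chosen with earlier results of these data known. Every member is named. Values by pool are given for members that passed in any comparison and for the member with the highest mean in each cluster, and up to 3 list genes per direction are named. HOXD10, HOXC6 and HOXA10 were singled out after their values were seen. Alternatives were no filter, filters on variability, quantile normalization, median centring, 16 added to the signal, an intensity trend, array weights, an ordinary linear model, adjustment over 7 comparisons, the compared groups alone, the pool number as a block, the dap covariate and leaving out each pool. Gene names and order come from RefSeq (ARS-UCD2.0), and no sequences were used here.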

Additional observations from a re-analysis of the deposited data

How the results depend on the processing

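The 5 comparisons other than the day in HR and the day over both groups gave 0 members under every alternative, leave-one-out fits included. For the day in HR, the count of 1 member (HOXA9) became 0 with no filter, with the adjusted p of the ordinary linear model, with adjustment over 7 comparisons, with the replicate block and with the dap covariate. It became 2 (HOXA5 and HOXA9) with quantile normalization, the intensity trend, array weights, the unadjusted p of the ordinary linear model and the compared groups alone, where the share of all tested probe sets that passed rose from 24.7% to between 25.0% and 43.5%, and ran from 0 to 2 when a pool was left out (0 without HR3 replicate 1 or 2 or HR7 replicate 1 or 2, and 2 without HR7 replicate 3 or LR7 replicate 1 or 3). For the day over both groups, the count of 1 (HOXA5) became 2 with both filters on variability and with array weights (HOXA5 and HOXA9) and with quantile normalization (HOXA5 and HOXB4, −0.32 against −0.19), where the share of all tested probe sets rose from 44.7% to 65.9% and 64.1% with the filters (5 members tested), 49.3% with array weights and 46.5% with quantile normalization, became 0 with adjustment over 7 comparisons and with the dap covariate, and ran from 1 to 3 when a pool was left out. It was 2 without HR3 replicate 3, LR3 replicate 1 or 2 or HR7 replicate 3, and 3 without LR7 replicate 2 (HOXA5, HOXA9 and HOXB3).

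With the pool number as a replicate block, HOXA9 in HR had an adjusted p of 0.0520 and HOXA5 over both groups 0.0249. Same-numbered pools of HR3 and HR7 did not deviate together in every pair (correlations of −0.044 to 0.123), so in HR the pools share only a number, and the same held for HR3 with LR3 (−0.455 to −0.074). In LR, and between HR7 and LR7, the block gave 0 members, as did the fit without it.

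Among single members, estimates that did not pass changed sign in 36 cases. These were HOXB4 for the interaction with quantile normalization (0.067) and array weights (0.028), HOXB3 for HR minus LR over both days with median centring (−0.00583), HOXA4 for HR3 minus LR3 with array weights (0.00097), and with the dap covariate HOXB3 for HR3 minus LR3 (0.10) and the interaction (−0.047), HOXA4 for HR minus LR over both days (−0.029) and the day in LR (−0.11) and HOXB7 for the day over both (−0.00088). When a pool was left out, sign changes occurred for HOXA4 in HR minus LR over both days (−0.031 to 0.107), HR3 minus LR3 (−0.142 to 0.133) and the interaction (−0.053 to 0.222), HOXA5 in HR7 minus LR7 (−0.09 to 0.15), HOXA9 in HR minus LR over both days (−0.264 to 0.053) and the day in LR (−0.518 to 0.107), HOXB3 in HR minus LR over both days (−0.054 to 0.113), HR3 minus LR3 (−0.242 to 0.023) and the day in HR (−0.232 to 0.018), HOXB4 in the interaction (−0.192 to 0.103) and HOXB7 in the day over both (−0.00167 to 0.068). The causes were not tested. HOXA9 in HR ran from −1.52 to −0.91 and HOXA5 over both from −0.38 to −0.26 over all alternatives. Alternatives for the probe sets below the limit were chosen after seeing the data, and HOXC6 over both groups passed in all 16 (adjusted p 0.00546 to 0.0397).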
